A study of Mus musculus with 15 samples.

Results

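The genes described are 39 mouse genes that encode parts of the lysosome, of 23359 genes in the deposited tables. They were taken by symbol from a fixed list, and all 39 were found. By role they are 9 proteases, 8 enzymes that cut sugar chains, 3 genes of lipid breakdown, 7 membrane proteins, the transcription factor gene Tfeb and 11 subunits of the proton pump, 4 of its membrane sector V0 and 7 of its catalytic sector V1. Expression was measured by RNA-seq in leukemia stem cells (LSC) of a mouse leukemia driven by the human oncogenes BCR-ABL and NUP98-HOXA9, taken 12 days after leukemia cells were given to recipient mice. The LSC groups are named by site: AT for gonadal adipose tissue, BM for bone marrow, SPL for spleen and BL for peripheral blood. NBM denotes the normal counterparts, taken from normal marrow. Each of the 5 groups had 3 libraries from female mice aged 3 months. The labels repeat the description of the leukemia model for the normal cells, give no sort gate, and do not state if each library came from its own mouse or which cells the recipients still had. The authors' p-values may therefore measure technical spread.

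Levels are the authors' FPKM (fragments scaled by transcript length and sequencing depth), 1 pooled value per group over its libraries, and bounds in brackets lie 2 standard deviations either side. Folds are given on the log2 scale, with the group named first as numerator, from the authors' deposited table of that comparison, ± the standard error that the authors' statistic implies. A gene was called higher or lower when that table tested it and its q-value was below 0.05. The pooled columns held between 8.96e+06 estimated counts (SPL) and 1.96e+07 (AT), and members took between 0.703% (SPL) and 1.92% (BL) of them. Members at 1 FPKM or more numbered between 35 and 38 of 39 by group. The labelled cell type was checked against 11 stem and progenitor genes. Their summed FPKM was 978 in NBM, 267 in BM, 264 in SPL, 37.7 in BL and 291 in AT. The list includes the granule enzyme genes Mpo, Elane and Prtn3. These alone of the tested genes had positive log2 folds in AT over BM (0.09, 0.57 and 0.31, authors' deposited table), and none was called. The stem cell factor receptor gene Kit stood at 10.4 FPKM in NBM and at 2.93 in BM, 4.10 in SPL, 2.26 in BL and 1.64 in AT LSC. The authors' test failed for Kit in every comparison with BM LSC. Hoxa9 went the other way and was higher in BM LSC than in NBM (2.24 ± 0.40, q = 8.24e-07, authors' deposited table), whereas Flt3, Mpo and Sox4 were lower. Of 9 such genes tested, 4 were lower in BL and 5 lower in AT than in BM LSC, and none was higher, in the authors' deposited tables. Of 8 fat cell genes, Adipoq, Plin1, Lep and Retn were under 0.1 FPKM in all 5 groups, while the summed FPKM of the list was 52.7 in AT and 36.6 in BL against 4.34 in BM.

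The lysosome is the compartment in which cells break down proteins, sugar chains and lipids that arrive by endocytosis, phagocytosis or autophagy. Its hydrolases work at an acidic pH that the vacuolar proton pump maintains, and heavily glycosylated membrane proteins line its limiting membrane. TFEB is a transcription factor that binds short palindromic promoter elements, called CLEAR elements, and activates many lysosomal genes. Macrophages and other phagocytes are known for large amounts of lysosomal enzymes.

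The letters of the CLEAR-type core were searched on both strands in RefSeq promoter windows (GRCm38.p6, 250 bases before to 50 after the start), which matched 32 of the 39 genes. Some genes have several windows, and a gene was counted when any of its windows held the letters. GTCACGTG was found in 10 of the 32 genes (31.2%), against 2.55% of 27025 genes and 4.51% of 10010 tested genes. TCACGTGA was found in 7 (21.9%), against 1.12% and 2.13%. The hexamer CACGTG, which lies inside both, was found in 14 (43.8%), against 8.09% and 11.2%. The GC box GGGCGG, searched for comparison, was found in 24 (75%), against 38.2% and 63.3%. These are matches of letters, with no measurement of binding.

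Stretches around TCACGTGA are printed for the 5 members that hold it before the start, since they show the shared element across roles. Each runs 5′ to 3′ on the gene's strand with the element in capitals.
Ctsa, chr2:164833750-164833772, plus strand: gagcaaactgTCACGTGAtgcag
Ctsd, chr7:142387909-142387936, minus strand: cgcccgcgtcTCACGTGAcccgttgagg
Mcoln1, chr8:3500463-3500490, plus strand: ggcgccccgcTCACGTGAccgcggcgca
Atp6v1a, chr16:44139374-44139401, minus strand: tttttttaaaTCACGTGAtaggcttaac
Gla, chrX:134601216-134601243, minus strand: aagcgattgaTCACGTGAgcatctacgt
Gla, chrX:134601183-134601210, minus strand: gagatctcggTCACGTGAgcaactctcg
The element begins 13 bases before the RefSeq start in Ctsa, 99 in Ctsd, 46 in Mcoln1, 132 in Atp6v1a, and 228 and 195 in Gla. GENCODE M21 places the stretches of Ctsa, Ctsd and Mcoln1 in a 5′ UTR exon of another transcript of the same gene, that of Atp6v1a inside the gene but in no exon, and those of Gla in a UTR exon of Hnrnph2, which lies on the opposite strand. These 5 genes encode 2 cathepsins (Ctsa and Ctsd), a calcium channel (Mcoln1), alpha-galactosidase (Gla) and the pump subunit that holds the site of ATP hydrolysis (Atp6v1a).

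Lysosomal genes as a group stood highest in blood LSC and next in adipose LSC. The summed FPKM of the 39 genes was 2570 (sums of bounds 1464 to 3677) in BL and 2049 (831 to 3268) in AT, against 1516 (1020 to 2012) in BM, 1268 (609.9 to 1926) in SPL and 1512 (1096 to 1927) in NBM. BL was the highest of the 5 groups for 19 members and AT for 8, whereas SPL was the lowest for 14, and BM and NBM for 10 each. The ranges from the summed bounds overlap between all groups, so the order of the sums is a description. RNA from bulk cells does not tell apart fewer cells of a type from less RNA per cell.

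**Figure D1:**
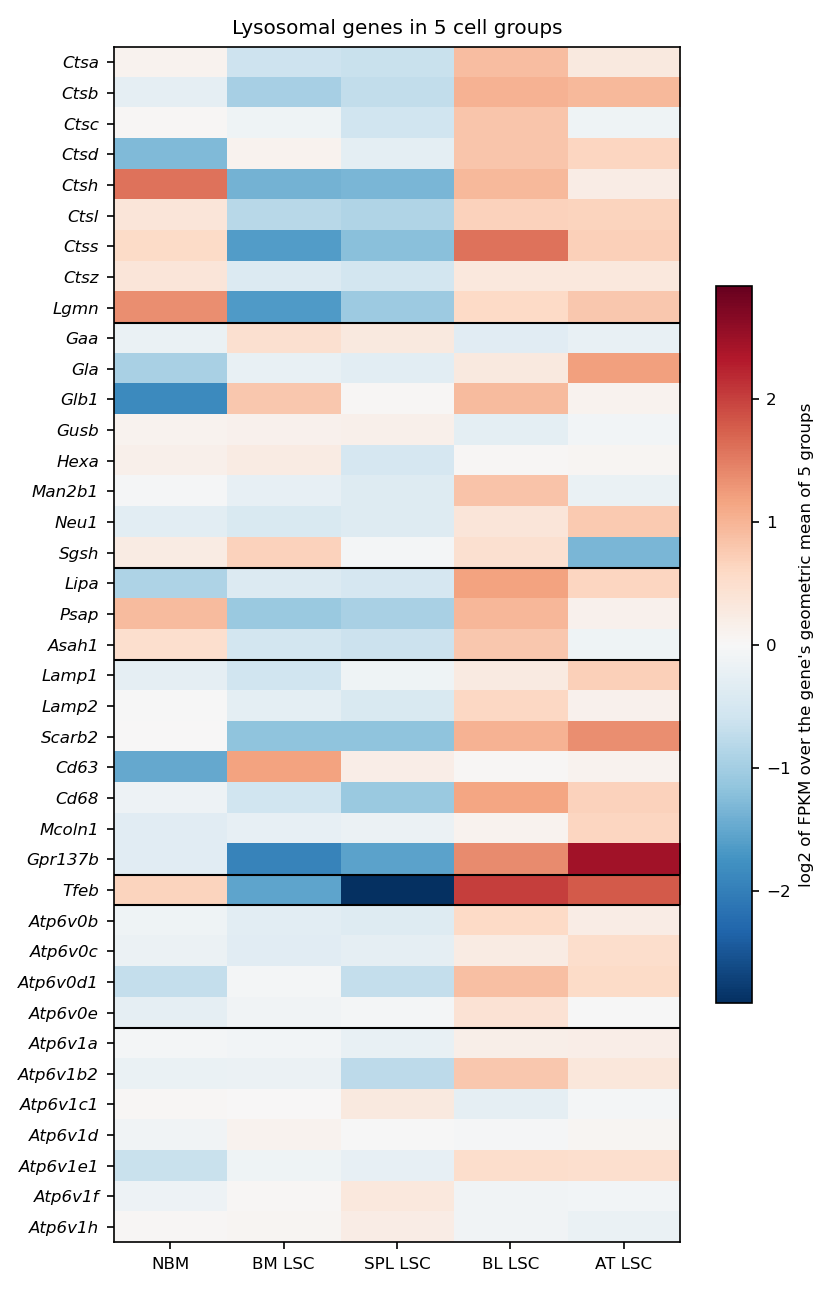
Level of each of the 39 genes (rows, by role, with black lines between roles) in 5 groups (columns), as log2 of the authors' pooled FPKM over the gene's geometric mean of the groups. Red cells lie above and blue cells below that mean. Gpr137b and Tfeb show the widest span, with AT and BL high and BM and SPL low, while most V1 pump genes stay near white.

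Over BM LSC, 16 of 38 members tested were higher in BL and 1 was lower, and 11 were higher in AT and 1 lower, in the authors' deposited tables. Over all tested genes, 10.5% were called higher and 22.8% lower in BL, and 7.24% higher and 15.5% lower in AT. The members' median log2 fold was 0.83 in BL and 0.57 in AT, against -0.37 and -0.48 over all tested genes. With folds centred on the median of all genes, those shares become 15.6% higher and 13.5% lower in BL and 11.8% higher and 5.11% lower in AT. The member counts just given are without centring, so they do not match the centred shares. Over SPL LSC, 17 of 39 members were higher in BL and 10 in AT, with none lower by Cuffdiff's q in the authors' deposited tables, against 10.2% and 7.2% of all tested genes called higher and 23.1% and 17.9% called lower. At an unadjusted p below 0.05, 0 members were lower in BL and 1, Sgsh, in AT. With centred folds, the shares of all genes are 14.9% higher and 14.5% lower in BL and 11.5% higher and 6.95% lower in AT, while the member counts above are uncentred. The AT count of 10 was 16 with total count scaling and 18 with upper quartile scaling. With these scalings 11.8% and 12.1% of all tested genes were higher in AT. Tfeb is among the calls over SPL at 2.58 estimated counts there. Comparisons with BM and with SPL share the BL or the AT group, and 16 members were called higher in BL over both and 9 in AT over both. The share of all tested genes called higher over both was not counted, so these overlaps are a description.

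Markers of other cell types moved in the same comparisons, and those of mature myeloid cells were among the lists that did so in both. Of 13 macrophage genes tested, 7 were higher in BL than in BM LSC and none lower, and 6 were higher and 1 lower in AT, in the authors' deposited tables. The summed FPKM of that list was 1321 in BL, 947 in AT, 175 in BM, 189 in SPL and 366 in NBM. Lyz2, which encodes lysozyme, stood at 1105 FPKM in BL, 852 in AT and 121 in BM, and Csf1r, the receptor for macrophage colony-stimulating factor, at 54.2, 22.9 and 3.38. Vsig4 was under 0.1 FPKM in all groups and Cd163 in AT. Of 11 mature neutrophil genes, 5 were higher in BL and 6 in AT than in BM LSC, with summed FPKM of 1232, 3999 and 887 in these groups. The 5 in BL were Mmp8, Mmp9, Cxcr2, Retnlg and Trem1. The 6 in AT were Ltf, Camp, Ngp, S100a8, S100a9 and Trem1, so Trem1 alone was in both. AT over BL called Camp, Ngp, S100a8 and S100a9 higher and Mmp8 and Mmp9 lower, in the authors' deposited table.

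Of the fat cell genes, Fabp4, a fatty acid carrier, stood at 46.2 FPKM in AT, 31.8 in BL and 3.45 in BM, and was higher in both over BM LSC, as was Pparg, in the authors' deposited tables. Cidec was also higher in AT, at 0.263 FPKM against 0.013 in BM. Of 9 stromal genes tested in AT over BM, 7 were higher and none lower (Col1a1, Col3a1, Dcn, Fn1, Lum, Pdgfra and Sparc), with summed FPKM of 45.4 in AT, 21.3 in BL and 9.11 in BM. Dcn, the matrix protein decorin, stood at 21 FPKM in AT and under 0.1 in the other 4 groups. Of 4 stromal genes tested in BL over BM, Fn1 and Pdgfra were higher and Col1a2 lower. Endothelial genes summed to 17.1 FPKM in AT, 25.2 in BL and 11.9 in BM, with Cdh5, Esam and Tek higher in AT and Flt1 and Pecam1 higher in BL, in the authors' deposited tables. Of 8 erythroid genes, 2 were higher (Hba-a1 and Alas2) and 4 lower in BL than in BM LSC, and 3 were lower in AT. Their summed FPKM was 2392 in BL, 689 in AT and 859 in BM, of which the globin gene Hba-a1 took 1952, 520.4 and 414. Of 5 B cell genes tested, 3 were higher in BL. Of 6 megakaryocyte genes 5 were lower in each of BL and AT, and of 7 mast cell and basophil genes 5, in the authors' deposited tables. The part of these cell types in the lysosomal differences was not tested.

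Tfeb, which encodes the regulator TFEB (mm10 chromosome 17, 47737030 to 47792419, plus strand), differed widely between groups at a low level. Its FPKM was 1.29 (0.625 to 1.95) in BL, 1.10 (0.417 to 1.78) in AT, 0.504 (0.256 to 0.752) in NBM, 0.109 (0.0329 to 0.186) in BM and 0.0422 (0 to 0.115) in SPL. The bounds of BL and AT lie above those of BM and SPL, while those of NBM overlap with AT and BL. The estimated counts were 208 in BL, 207 in AT, 82.2 in NBM, 14.3 in BM and 2.58 in SPL, so the marrow and spleen levels rest on few fragments. Over BM LSC the log2 fold in the authors' deposited table was 3.56 ± 0.63 in BL (q = 5.68e-07) and 3.33 ± 0.67 in AT (q = 2.03e-05). BM LSC were lower than NBM by the authors' deposited table, with a log2 fold of -2.20 ± 0.62 (q = 0.00344). BL LSC were higher than NBM (1.35 ± 0.51, q = 0.0421), and AT LSC had a fold of 1.13 ± 0.57 over NBM that missed the threshold (q = 0.157), per the authors' deposited tables. AT over BL gave -0.23 on the log2 scale in the authors' deposited table and missed the threshold.

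Among the related MiT genes, Mitf stood at 1.63 FPKM in BL and 0.79 in BM, and was higher in BL (1.04 ± 0.40, q = 0.0421) in the authors' deposited table. Tfec, another relative, was at 7.54 FPKM in NBM and 1.81 in BM LSC, lower by the authors' deposited table (-2.06 ± 0.37, q = 1.38e-06). Tfe3 ranged from 0.83 FPKM in SPL to 1.85 in AT and was not called in BL or AT over BM. In a list of 21 MiT and nutrient-sensing genes, of which 20 were tested, 1 was higher in BL and 2 in AT than in BM LSC, and none was lower, in the authors' deposited tables, against 10.5% and 7.24% of all tested genes called higher. The 2 in AT were Fnip2, a partner of folliculin, with 1.23 FPKM in AT and 0.33 in BM, and Rragc, a small GTPase that recruits mTORC1, with 2.55 and 1.08.

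**Figure D2:**
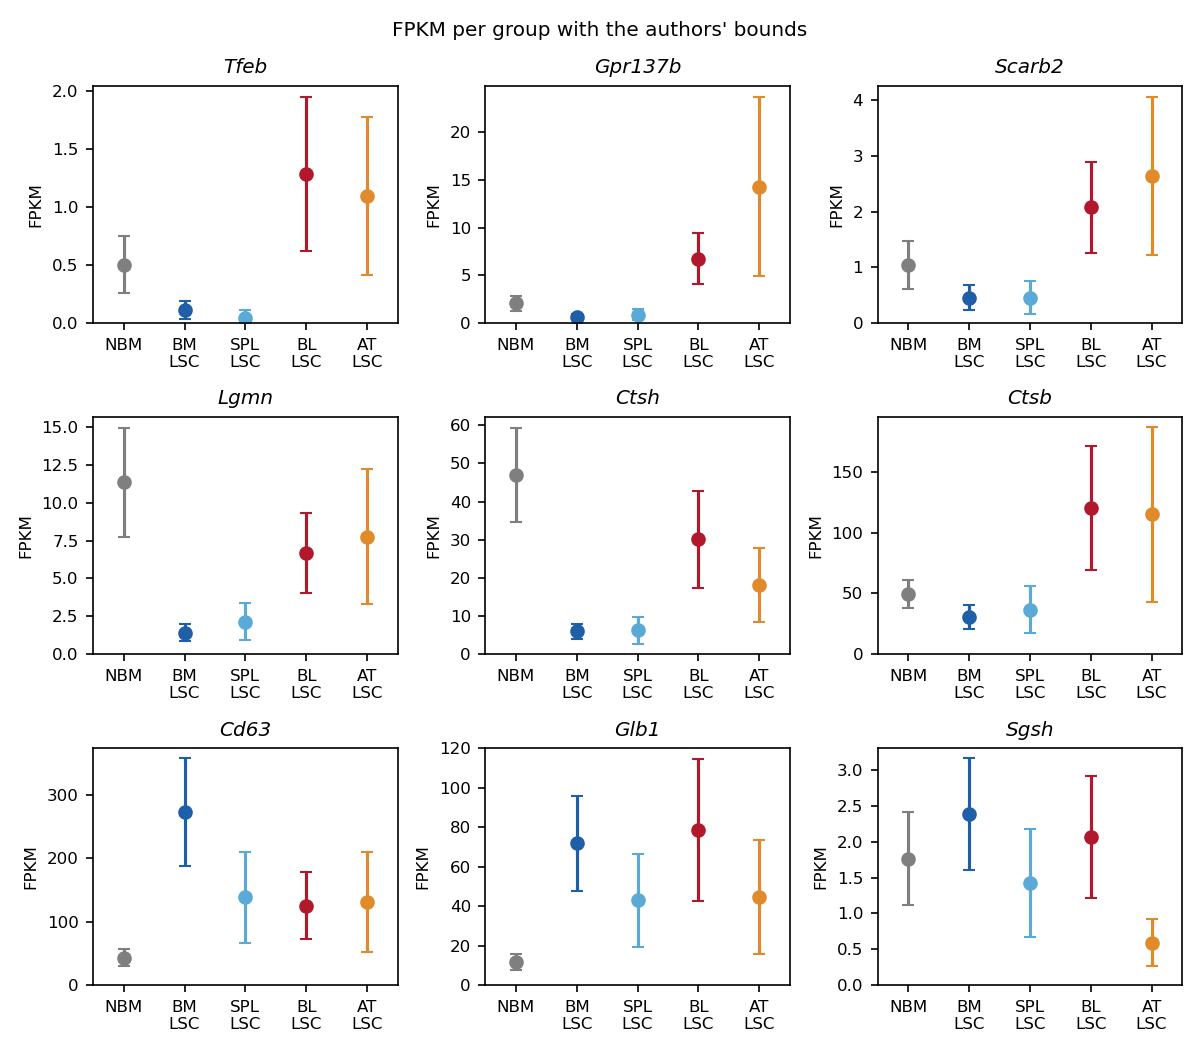
The authors' pooled FPKM of 9 members in the 5 groups (points) with their bounds of 2 standard deviations (bars). Tfeb, Gpr137b and Scarb2 lie highest in BL and AT and lowest in BM and SPL LSC, Lgmn and Ctsh are highest in NBM, Cd63 is highest in BM LSC, and Sgsh is lowest in AT.

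Proteases carried the largest part of the difference. Their summed FPKM was 1280 (sums of bounds 738 to 1823) in BL, 996 (397 to 1594) in AT, 683 (515 to 850.3) in NBM, 546 (372 to 720.4) in BM and 472 (217 to 727) in SPL. Of 8 tested over BM LSC, 6 were higher in BL (Ctsa, Ctsb, Ctsc, Ctsh, Ctsl and Lgmn) and 4 in AT (Ctsb, Ctsh, Ctsl and Lgmn), with none lower, in the authors' deposited tables. Over all tested genes, 10.5% were called higher and 22.8% lower in BL, and 7.24% higher and 15.5% lower in AT. Ctsz, a carboxypeptidase, was called in no comparison and ranged from 115 FPKM in SPL to 212 in NBM.

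Lgmn encodes legumain, a protease that cuts after asparagine and matures other cathepsins (mm10 chromosome 12, 102394084 to 102439813, minus strand). Its FPKM was 11.4 (7.76 to 15.0) in NBM, 1.42 (0.857 to 1.98) in BM, 2.15 (0.904 to 3.40) in SPL, 6.66 (4.01 to 9.30) in BL and 7.76 (3.30 to 12.2) in AT. The BM bounds lie below those of NBM, BL and AT. In the authors' deposited tables BM LSC were lower than NBM (-3.0 ± 0.37, q = 5.49e-14), and BL (2.23 ± 0.40, q = 1.28e-06) and AT (2.45 ± 0.50, q = 2.59e-05) were higher than BM LSC.

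Ctsh, an aminopeptidase of the cathepsin family (mm10 chromosome 9, 90054152 to 90076089, plus strand), had a like order with a lower level in AT. Its FPKM was 46.9 (34.5 to 59.3) in NBM, 6.0 (4.0 to 8.0) in BM, 6.22 (2.63 to 9.81) in SPL, 30.1 (17.4 to 42.8) in BL and 18.2 (8.52 to 27.8) in AT. BM LSC were lower than NBM by -2.97 ± 0.31 on the log2 scale in the authors' deposited table, which lists the q-value as 0. Over BM LSC, BL rose by 2.33 ± 0.39 (q = 1.04e-07) and AT by 1.60 ± 0.45 (q = 0.00381) in the authors' deposited tables. AT LSC were lower than NBM in the authors' deposited table (-1.37 ± 0.43, q = 0.0102), a call that was lost when folds were centred on all genes (-0.91) or scaled to the upper quartile (-0.94).

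Ctsb, an abundant endopeptidase, stood at 120 FPKM (69.0 to 171) in BL, 115 (43.3 to 187) in AT, 49.6 (37.8 to 61.4) in NBM, 36.7 (17.0 to 56.3) in SPL and 30.6 (20.8 to 40.3) in BM. The bounds of both BL and AT lie above those of BM. It was higher than in BM LSC in BL (1.98 ± 0.38, q = 7.74e-06) and in AT (1.91 ± 0.51, q = 0.00172) by the authors' deposited tables. Ctsl, another endopeptidase, was at 12.4 FPKM in BL, 12.2 in AT, 9.89 in NBM, 4.46 in BM and 4.25 in SPL. It was higher than in BM LSC in BL (1.48 ± 0.38) and AT (1.45 ± 0.43) and lower in BM LSC than in NBM (-1.15 ± 0.33, q = 0.00499), per the authors' deposited tables. Exons of Gm47123 on the opposite strand cover 26.8% of the Ctsl exon bases, and those of the pseudogene Gm49230, on the same strand, 6.09%. Reads could be split among them, and the sources used here do not say whether counting used strand.

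Ctsd, the aspartic protease cathepsin D, had the highest FPKM of the members in BL, AT and SPL and set the LSC apart from normal marrow. It stood at 98.9 FPKM (75.5 to 122) in NBM, 260 (177 to 343) in BM, 197 (93.5 to 299.9) in SPL, 424 (254 to 594) in BL and 373 (158 to 588) in AT. The share of protease FPKM taken by Ctsd was 14.5% in NBM and between 33.1% and 47.5% in the LSC groups. Over NBM it was higher in BM (1.39 ± 0.29, q = 2.82e-05), BL (2.10 ± 0.34, q = 2.64e-08) and AT (1.92 ± 0.45, q = 0.000324) in the authors' deposited tables, and the SPL fold of 0.99 missed the threshold (q = 0.0714). Exons of Gm49369, on the same strand, cover 34.4% of the Ctsd exon bases, so reads could be split between them.

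Ctss, a cathepsin that trims the invariant chain of MHC class II, was at 293 FPKM (153 to 434) in BL, 158 (43.9 to 272) in AT, 145 (109.5 to 181) in NBM, 42.4 (13.2 to 71.5) in SPL and 31.6 (22.0 to 41.2) in BM. The authors' test failed for it in every comparison with BM LSC or NBM. Over SPL LSC it was higher in BL (2.79 ± 0.61, q = 8.16e-05) and AT (1.90 ± 0.72, q = 0.0418) in the authors' deposited tables. Ctsc, which activates granule serine proteases, and Ctsa, which protects galactosidase and neuraminidase, were higher in BL than in BM LSC (0.94 ± 0.35 and 1.5 ± 0.39) in the authors' deposited table. In AT over BM, Ctsc had 64.4 against 64.5 FPKM and Ctsa 41.7 against 22.2, neither called.

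Genes of cathepsin inhibitors were counted from a separate list. Of 11 inhibitor genes tested over BM LSC, 3 were higher and 1 lower in BL, and 7 were higher and 1 lower in AT, in the authors' deposited tables, against 10.5% and 7.24% of all tested genes called higher. Cst3, the secreted inhibitor cystatin C, stood at 470 FPKM in BL, 351 in AT and 149 in BM LSC. Cst7, cystatin F, was the gene that was lower, with 40.4 FPKM in BL, 36.0 in AT and 107 in BM. Stefin genes, cytosolic inhibitors in a cluster of near-copies among which reads may be split, were higher in AT than in BL, as for Stfa1 (103 against 21.7 FPKM, 2.24 ± 0.54, q = 0.00053, authors' deposited table). The AT over BL comparison called 6 of the 11 inhibitor genes higher, all of the stefin type, and none lower, with 4.01% of all tested genes called higher in AT.

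Enzymes that cut sugar chains did not move together. Their summed FPKM was 92.5 in NBM, 159 in BM, 117 in SPL, 169 in BL and 128 in AT. Over BM LSC, Man2b1 alone of the 8 was higher in BL, and in AT Gla and Neu1 were higher and Sgsh lower, in the authors' deposited tables. Over all tested genes, 10.5% were called higher in BL, and 7.24% higher and 15.5% lower in AT. The 1 of 8 higher in BL and the 1 of 8 lower in AT lie near these shares. Gaa, Gusb and Hexa were called in no comparison, and their highest FPKM lay between 1.34 and 1.75 times their lowest.

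Glb1, which encodes beta-galactosidase (mm10 chromosome 9, 114401076 to 114474898, plus strand), accounted for most of the gap to normal marrow. It stood at 11.6 FPKM (7.64 to 15.5) in NBM, 71.8 (47.6 to 96.1) in BM, 42.9 (19.5 to 66.3) in SPL, 78.7 (42.5 to 115) in BL and 44.7 (15.9 to 73.4) in AT. All LSC bounds lie above those of NBM. Folds over NBM in the authors' deposited tables were 2.63 ± 0.35 in BM (q = 3.9e-12), 1.89 ± 0.46 in SPL, 2.77 ± 0.41 in BL and 1.95 ± 0.52 in AT, all called. Glb1 and Cd63 were the members called higher over NBM in all 4 LSC groups, comparisons that share the NBM group. The share of all tested genes called higher in all 4 was not counted.

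Gla, the alpha-galactosidase with 2 printed elements, rose from 2.16 FPKM in NBM to 5.08 in BL and 9.49 in AT, with 3.58 in BM and 3.34 in SPL. AT was higher than BM LSC (1.41 ± 0.45, q = 0.0118) and than NBM (2.14 ± 0.47, q = 9.46e-05) in the authors' deposited tables. Neu1, a sialidase, stood at 5.0 FPKM in AT and 2.16 in BM (1.21 ± 0.44, q = 0.0309, authors' deposited table). Man2b1, an alpha-mannosidase, stood at 30.4 FPKM in BL and 14.4 in BM LSC (1.08 ± 0.35, q = 0.0138, authors' deposited table), with 14.9 in AT.

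Sgsh, a sulfatase that degrades heparan sulfate (mm10 chromosome 11, 119343425 to 119355536, minus strand), was the member that was lower in AT than in BM LSC. Its FPKM was 0.593 (0.262 to 0.924) in AT, 1.43 (0.676 to 2.18) in SPL, 1.76 (1.11 to 2.41) in NBM, 2.07 (1.21 to 2.92) in BL and 2.38 (1.60 to 3.16) in BM. The AT bounds lie below those of BM, BL and NBM and overlap with SPL. AT was lower than BM (-2.01 ± 0.47, q = 0.000278) and than BL (-1.80 ± 0.50, q = 0.00317) in the authors' deposited tables. The difference from NBM (-1.57 ± 0.48, q = 0.00867, authors' deposited table) was no longer called with folds centred on all genes (-1.11). Sgsh was also the single member called between AT and BL, where 2.51% of all tested genes were lower in AT. Exons of Card14 on the opposite strand cover 21.6% of its exon bases, and the sources used here do not say whether counting used strand.

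The 3 genes of lipid breakdown were all higher in BL than in BM LSC by the authors' deposited table, against 10.5% of all tested genes. Psap, whose product is cut into the saposins that present lipids to hydrolases, was at 209 FPKM (103 to 315) in BL, 203 (150.04 to 256) in NBM, 117 (38.9 to 196) in AT, 55.9 (25.2 to 86.5) in SPL and 50.3 (32.8 to 67.9) in BM. The Psap levels of BL and NBM lie within each other's bounds, and BM and SPL LSC are the lowest. BL over BM gave 2.05 ± 0.45 (q = 8.08e-05) in the authors' deposited table, and the authors' test failed for Psap against NBM in all LSC groups. Lipa, the acid lipase that releases cholesterol from its esters, stood at 58.6 FPKM in BL, 40.6 in AT, 19.7 in BM, 18.5 in SPL and 14.1 in NBM. It was higher in BL than in BM (1.57 ± 0.35) and NBM (2.05 ± 0.35), and higher in AT than in NBM (1.52 ± 0.43), per the authors' deposited tables. Asah1, acid ceramidase, stood at 34.5 FPKM in BL, 27.9 in NBM, 18.1 in AT, 13.8 in BM and 12.8 in SPL. It was lower in BM LSC than in NBM (-1.02 ± 0.29, q = 0.0039) and higher in BL than in BM (1.32 ± 0.35, q = 0.00187), per the authors' deposited tables.

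**Figure D3:**
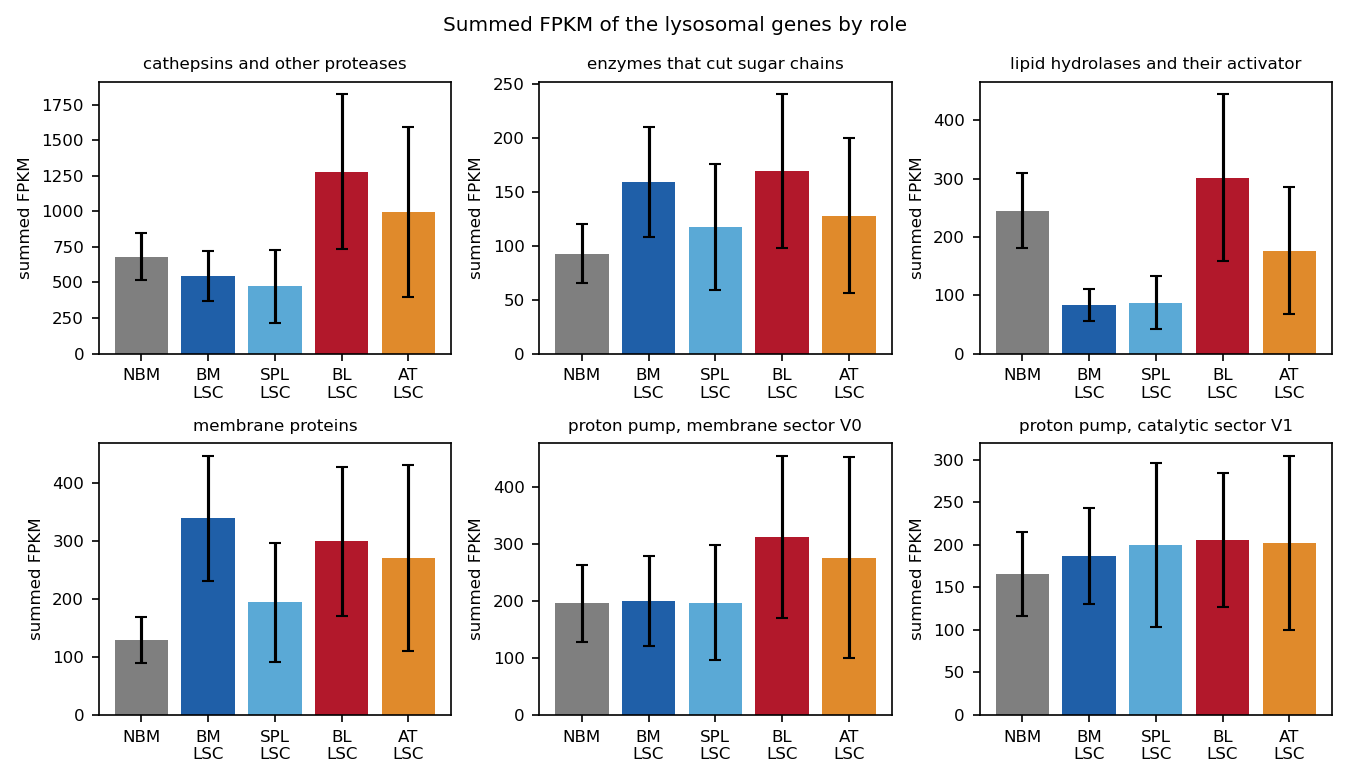
Summed FPKM by role (bars, axes from 0) in the 5 groups, with the sums of the authors' lower and upper bounds as error bars. Proteases reach 1280 in BL and 996 in AT, and V1 pump genes span 166 to 206. Lipid genes are low in BM (83.8) and SPL (87.3) against 245 in NBM. Psap holds most of that gap (50.3 and 55.9 against 203), and Lipa is higher in BM (19.7) than in NBM (14.1). Membrane proteins peak in BM (339), where Cd63 alone takes 273, and no other membrane gene is highest in BM.

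Apart from Tfeb, the widest span of levels was that of a membrane protein gene. Gpr137b, a lysosomal membrane protein linked to mTORC1 signalling (mm10 chromosome 13, 13357620 to 13394014, minus strand), stood at 14.3 FPKM (4.88 to 23.7) in AT, 6.75 (4.05 to 9.46) in BL, 2.08 (1.29 to 2.88) in NBM, 0.886 (0.337 to 1.43) in SPL and 0.677 (0.398 to 0.956) in BM. The AT and BL bounds lie above those of the other 3 groups, and overlap each other. Over BM LSC the fold was 4.40 ± 0.56 in AT (q = 7.87e-13) and 3.32 ± 0.41 in BL (q = 2.43e-13) in the authors' deposited tables. BM LSC were lower than NBM (-1.62 ± 0.41, q = 0.000838), and AT over BL missed the threshold (1.08 ± 0.56, q = 0.164), per the authors' deposited tables. Gpr137b-ps, a near-identical copy, was listed at 14.7, 6.88, 2.12, 0.908 and 0.693 FPKM in the same order of groups, so reads may be split between them and the level of either is uncertain.

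Scarb2, the receptor that carries beta-glucocerebrosidase to lysosomes (mm10 chromosome 5, 92441314 to 92506833, minus strand), stood at 2.64 FPKM (1.22 to 4.07) in AT, 2.08 (1.26 to 2.90) in BL, 1.04 (0.603 to 1.48) in NBM, 0.457 (0.157 to 0.758) in SPL and 0.456 (0.238 to 0.675) in BM. The bounds of AT and BL lie above those of BM and SPL. It was higher than in BM LSC in AT (2.53 ± 0.52, q = 2.73e-05) and BL (2.19 ± 0.45, q = 2.55e-05) in the authors' deposited tables. The lower level in BM LSC than in NBM (-1.19 ± 0.46, q = 0.0469, authors' deposited table) was not called after centring or with an adjustment within the comparison.

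Cd63, a tetraspanin of late endosomes and secretory granules (mm10 chromosome 10, 128900989 to 128912822, plus strand), ran the other way. Its FPKM was 43.4 (29.9 to 57.0) in NBM, 273 (188 to 358) in BM, 139 (66.9 to 210.3) in SPL, 125 (72.5 to 178) in BL and 131 (51.9 to 210) in AT. All LSC bounds but those of AT lie wholly above those of NBM. Folds over NBM in the authors' deposited tables were 2.65 ± 0.32 in BM, where q is listed as 0, 1.67 ± 0.44 in SPL, 1.53 ± 0.38 in BL and 1.59 ± 0.49 in AT, all called. BL LSC were lower than BM LSC (-1.12 ± 0.38, q = 0.0193, authors' deposited table), a call lost with folds centred on all genes (-0.75).

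Cd68, a glycoprotein of macrophage lysosomes, stood at 101 FPKM (60.5 to 141) in BL, 72.3 (33.5 to 111) in AT, 40.5 (28.8 to 52.2) in NBM, 30.1 (21 to 39.2) in BM and 21.2 (10.9 to 31.4) in SPL. It was higher than in BM LSC in BL (1.75 ± 0.36, q = 3.34e-05) and in AT (1.26 ± 0.44, q = 0.0254) in the authors' deposited tables. Lamp1 and Lamp2, the main glycoproteins of the lysosomal membrane, differed less. Lamp1 stood at 8.09 FPKM (3.89 to 12.3) in AT, 6.06 (3.67 to 8.45) in BL, 4.61 (2.34 to 6.88) in SPL, 4.18 (2.68 to 5.67) in NBM and 3.37 (2.22 to 4.52) in BM, with bounds that overlap throughout. Its AT over BM fold of 1.26 ± 0.45 (q = 0.0272) was its only call, and BL over BM gave 0.85 (q = 0.094), in the authors' deposited tables. Lamp2 stood between 28.2 FPKM in SPL and 58.1 in BL and was called in no comparison. Mcoln1, the calcium channel whose promoter element is printed above, stayed between 0.211 FPKM in NBM and 0.411 in AT, from 13.6 to 71.2 estimated counts, and was called in none.

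Of 11 proton pump genes, 3 were called in at least 1 comparison, and the share of all genes so called was not counted. In BL, 2 were higher than in BM LSC, where 10.5% of all tested genes were, and 3 were higher than in NBM, where 11.5% were. None was lower in either comparison, where 22.8% and 22.9% of all tested genes were, in the authors' deposited tables. None was called in AT over BM, where 7.24% of all tested genes were higher and 15.5% lower. The 11 subunits summed to 362 FPKM in NBM, 387 in BM, 397 in SPL, 518 in BL and 478 in AT. Of these, 8 were called in no comparison (Atp6v0b, Atp6v0c, Atp6v0e, Atp6v1a, Atp6v1c1, Atp6v1d, Atp6v1f and Atp6v1h). For the 5 V1 genes among them the highest level was between 1.15 and 1.47 times the lowest, and for the 3 V0 genes between 1.61 and 1.97 times. The 95% interval of a fold reached from -0.91 to 1.05 for Atp6v1d, the narrowest ratio, and from -1.24 to 2.32 for Atp6v0c, per the authors' deposited tables, so changes inside these limits are not excluded.

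The 3 pump genes that were called were higher in BL, AT or both. Atp6v0d1, the stalk subunit of V0, stood at 30.3 FPKM in BL, 24.3 in AT, 15.7 in BM, 10.1 in SPL and 10.2 in NBM. It was higher in BL than in BM LSC (0.94 ± 0.35, q = 0.0354) and higher than in NBM in BL (1.57 ± 0.36) and AT (1.25 ± 0.43), per the authors' deposited tables. Atp6v1b2, the B subunit of the V1 head, stood at 26.1 FPKM in BL and 13.4 in BM LSC (0.96 ± 0.36, q = 0.0413, authors' deposited table). Atp6v1e1, a peripheral stalk subunit, stood at 46.4 FPKM in BL, 46.2 in AT and 20.9 in NBM, with folds over NBM of 1.16 ± 0.35 and 1.15 ± 0.43 in the authors' deposited tables. Of the 14 other pump subunits, 11 were tested, and Tcirg1, a V0 subunit of osteoclasts and immune cells, was higher than in BM LSC in BL (11.8 against 5.34 FPKM) and AT (14.8), per the authors' deposited tables. Atp6v1g2 was lower in AT than in BM, and Atp6v0d2, another d subunit, lower in BL than in BM.

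**Figure D4:**
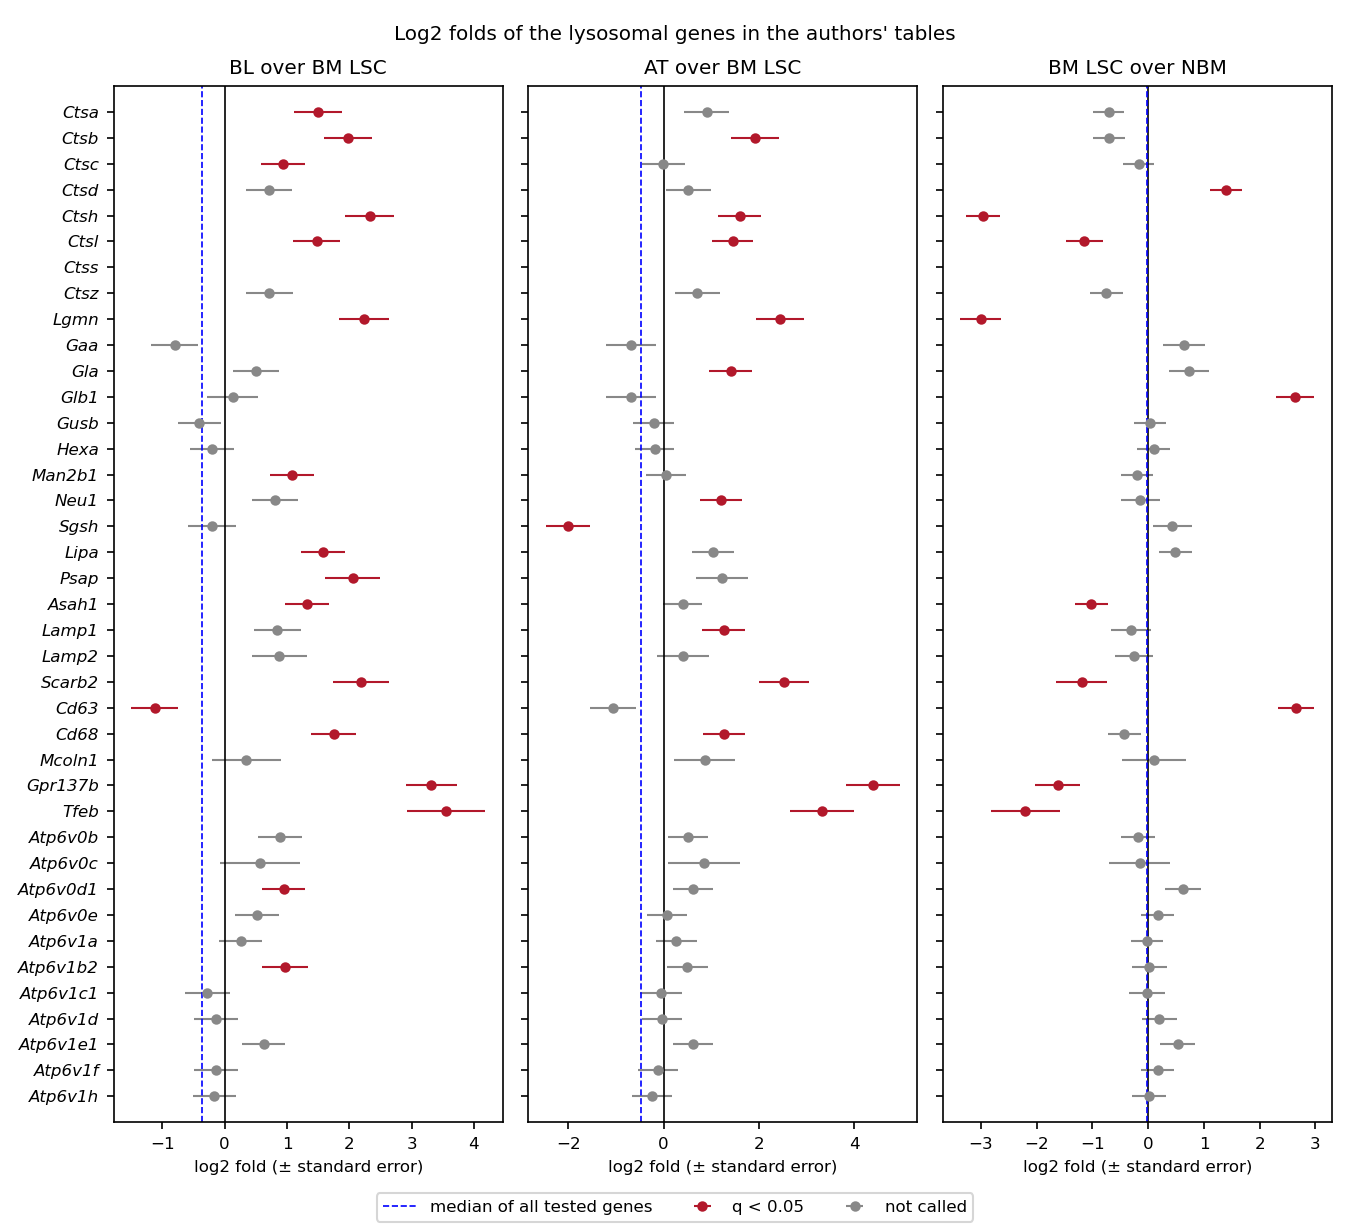
Log2 folds of the members (± the standard error from the authors' statistic) in BL over BM, AT over BM and BM over NBM, with genes called at q below 0.05 in red, others in grey and the median of all tested genes as a dashed line. Points for Ctss, and for Psap over NBM, are missing since the authors' test failed. Most members lie right of the dashed line in BL and AT, and BM over NBM holds 3 red points on the right and 7 on the left.

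Against normal marrow, BM and SPL LSC had more members lower than higher, and BL and AT LSC more higher than lower. BM LSC had 3 members higher and 7 lower of 37 tested, and SPL LSC 2 higher and 5 lower, in the authors' deposited tables, against 8.17% and 7.85% of all tested genes in BM and 6.37% and 6.19% in SPL. Asah1, Ctsh, Ctsl, Lgmn and Tfeb were lower than NBM in both. With total count scaling the 5 lower in SPL became 10, against 8.29% of all tested genes. BL LSC had 13 members higher and none lower (1 at an unadjusted p below 0.05, Lgmn) and AT LSC 9 higher and 2 lower, against 11.5% higher and 22.9% lower over all tested genes in BL and 7.94% and 15.5% in AT. With centred folds these shares are 16.6% and 14% in BL and 12.4% and 6.56% in AT, and the AT counts are 14 higher and none lower. The BL counts given are without centring. The 8 members higher than NBM in both BL and AT were Atp6v0d1, Atp6v1e1, Cd63, Ctsd, Gla, Glb1, Gpr137b and Lipa. All these comparisons share the NBM group, and the share of all tested genes called alike in both groups was not counted. Of 13 macrophage genes tested, 2 were higher and 8 lower in BM LSC than in NBM, and their part in the result was not tested.

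Between SPL and BM LSC, none of 37 members tested by Cuffdiff was called in either direction, in the authors' deposited table. Over all tested genes, 1.19% were called higher and 1.5% lower in SPL. At an unadjusted p below 0.05, for which no share of all genes is given here, Cd63 alone was lower in SPL. The members' median log2 fold was -0.09. Between AT and BL LSC, Sgsh alone of 39 was called, lower in AT, in the authors' deposited table. Over all tested genes, 2.51% were called lower and 4.01% higher in AT, so this count lies near the share called lower. At an unadjusted p below 0.05, 3 members were lower in AT (Asah1, Man2b1 and Sgsh) and none was higher. The share of all tested genes at that threshold is not given here. The members' median fold in AT over BL was -0.06 with a median standard error of 0.48. The 8 members called higher over BM in BL but not in AT, and the 3 called in AT but not in BL (Gla, Lamp1 and Neu1), are therefore not shown to differ between these sites.

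Calls were also counted with and without the promoter hexamer. In BL over BM, 4 of 14 members with CACGTG were higher (Atp6v0d1, Ctsa, Ctsl and Lgmn) and 7 of 18 without it, in the authors' deposited table. Of all tested genes, 10.5% were called higher there. In AT over BM, 4 of 14 with it and 4 of 18 without it were higher, against 7.24% of all tested genes. The 18 include Ctss, for which the authors' test failed in both comparisons. The members' median fold in BL over BM was 0.61 with the hexamer and 0.81 without. No difference between these shares was tested. The counts leave out the 7 genes without a window. Of these, Gpr137b, Ctsb, Ctsh, Asah1 and Atp6v1b2 were called higher in BL over BM, and Gpr137b, Ctsb and Ctsh also in AT.

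Other genes of the lysosome were counted from lists of genes outside the 39, beside 10.5% of all tested genes called higher in BL over BM LSC and 7.24% in AT. Of 43 other hydrolases and cofactors tested in BL over BM LSC, 11 were higher and 1 lower, and of 44 in AT, 4 were higher and 1 lower, in the authors' deposited tables. Smpdl3b, an enzyme related to acid sphingomyelinase, stood at 15.0 FPKM in BL, 6.68 in AT and 0.52 in BM, with folds of 4.84 ± 0.50 and 3.67 ± 0.52 in the authors' deposited tables. Ctsg, a granule protease, was the gene that was lower in BL, at 19.3 FPKM against 39.5 in BM. In BM LSC against NBM 2 of 43 were higher and 9 lower, with Ctse, an aspartic protease, at 6.34 against 55.7 FPKM (-3.13 ± 0.29, authors' deposited table). Of membrane and transport genes, 7 of 30 tested were higher and 2 lower in BL and 3 of 31 higher in AT over BM, led by Slc11a1, a metal transporter of phagosomes, with 30.3 FPKM in BL, 25.7 in AT and 1.30 in BM. Of 21 genes that sort enzymes to lysosomes, Sort1 and Igf2r, receptors for enzyme precursors, were higher in both BL and AT over BM, and Vps39 was lower in AT, per the authors' deposited tables. The AT counts of hydrolases and membrane genes, and the counts of sorting genes, lie near the shares of all tested genes.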

How the data were processed

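RNA-seq libraries (15, 3 in each of 5 groups) were made with Clontech SMARTer and Nextera XT chemistry, per the labels' protocols. Trimmomatic 0.32, Cufflinks 2.0.2 and Cuffdiff on mm10 are named, per the submitters' processing notes. Not given in the sources used here are aligner, annotation and Cuffdiff version. For each gene and group the authors deposited FPKM with lower and upper bounds and an estimated count, pooled over libraries. For each of 10 comparisons the authors deposited a log2 fold, a test statistic (a score), a p-value and a q-value. Recomputing the q-value by Benjamini-Hochberg adjustment across the 10 comparisons jointly matched the deposited one to within 1.7e-06. A test of counts per library had been planned. Because the deposited columns are pooled, the calls are those of the authors' tables.

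Standard errors are the authors' log2 fold divided by their statistic, from Python 3.11.15 with numpy 2.4.6 and pandas 2.3.3. Folds are not printed where a group held at most 3 estimated counts (Tfeb in SPL). Infinite folds stand in the files as extreme values, and an entry that merges genes was read by its first gene. Of 267 symbols in 18 lists, 263 were found. Members and lists were chosen with earlier results of these data known. Members were described in full when among the 6 smallest q-values per direction in AT against BM, AT against BL, BL against BM or BM LSC against NBM, as were Lamp1, Lamp2, Tfeb, Mcoln1 and Gpr137b. Up to 3 called genes per list and direction were to be named, and other genes were named after their values were seen. Coordinates come from GENCODE M21. Calculations were tested on simulated data. Alternatives were other scalings, adjustments, thresholds and filters.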

Additional observations from a re-analysis of the deposited data

How the results depend on the processing

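No paired analysis was possible because the deposited columns hold 1 pooled value per group. For the same reason leaving out each replicate and the replicate block were not run. No call of a member changed direction under the alternatives run. At a q threshold of 0.01, members called higher in AT over BM numbered 7 instead of 11 and in AT over SPL 4 instead of 10. At that threshold the count lower in BL than in BM was 0 instead of 1, in SPL than in NBM 2 instead of 5, and in AT than in NBM 1 instead of 2. With folds centred on the median of all tested genes, and with upper quartile scaling, the count lower in BL than in BM was 0, that higher in AT than in NBM 14 instead of 9, and that lower in AT than in NBM 0. Members higher in AT than in SPL numbered 16 with total count scaling and 18 with upper quartile scaling, against 11.8% and 12.1% of all tested genes. Total count scaling made 10 members lower in SPL than in NBM, and 1 (Cd63) lower in SPL than in BM instead of 0. With that scaling 8.29% and 2.56% of all tested genes were lower in SPL. After subtracting the median of all tested genes, the members' median fold was 1.05 in AT over BM, 1.03 in BL over NBM and 0.76 in AT over NBM. Of the single-gene folds, centring kept the call of 345, added 29 and removed 4. Another scaling shifts the folds of a comparison by up to 0.57 on the log2 scale, and the cause of the shift was not tested. The members' median standard error was 0.42 in SPL over NBM, at 8.96e+06 estimated counts in SPL, and 0.44 in AT over NBM, at 1.96e+07 in AT.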

Other observations

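Autophagy genes, which deliver cargo to lysosomes, were measured beside the lysosomal genes. Of 22 tested, 5 were higher and 2 lower in BL than in BM LSC, and 2 were higher and none lower in AT, in the authors' deposited tables. Over all tested genes, 10.5% were called higher and 22.8% lower in BL and 7.24% higher in AT, near the AT count. Sqstm1, the cargo receptor p62, stood at 49.7 FPKM in AT, 25 in BL, 10.6 in BM, 4.89 in SPL and 5.19 in NBM. It was higher than in BM LSC in AT (2.23 ± 0.44, q = 9.68e-06) and BL (1.23 ± 0.36, q = 0.00552), per the authors' deposited tables. Optn, another cargo receptor, was lower in BL than in BM and higher in AT than in BL (1.79 ± 0.57, q = 0.0124, authors' deposited table), with 0.71 FPKM in AT, 0.20 in BL and 0.89 in BM.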
